A study of Mus musculus with 4 samples.

Results

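The genes that encode the proteins of the mitochondrial ribosome were followed through 4 RNA-seq libraries of mouse T helper 17 (Th17) cultures. Members were taken by name: gene names that begin with Mrpl or Mrps and a number, leaving out names that end in -ps and a digit. The deposited tables hold 19555 rows each, of which 80 had such a beginning and 77 were kept. They comprised 49 genes of the large subunit, 27 genes of the small subunit and Mrpl48-ps, a processed pseudogene that the rule keeps because its name ends in -ps without a digit. The 3 rows left out were Mrpl23-ps1, Mrps36-ps1 and Mrps36-ps2. Every member had a mean level of at least 1 RPKM (reads per kilobase of gene model, scaled to library size), so none was lost to the filter on low values.

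The mitochondrial ribosome, or mitoribosome, translates the messenger RNAs of the mitochondrial genome, which encode subunits of the respiratory chain and of ATP synthase. Its RNA comes from mitochondrial DNA, whereas its proteins are encoded in the nucleus, made in the cytosol and imported. Some of these proteins descend from bacterial ribosomal proteins and others were added in the mitochondrial line. Activated T cells enlarge their mitochondria as they leave the resting state, and mitochondrial translation is part of that growth.

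In all groups the starting cells were naive CD4+ T cells, taken from lymph nodes and spleen of C57BL/6 mice. They were activated and kept for 3 days with interleukin-6 and transforming growth factor β1, the cytokines that direct Th17 differentiation. The groups differed in genotype, wild type (WT) or Smad4 knockout (KO), and in culture temperature, 37 °C or 39.5 °C, a fever-range heat. Smad4 encodes the shared partner of the SMAD proteins that carry the transforming growth factor β signal. The comparisons ask whether heat changes the Th17 transcriptome and whether that response differs with the Smad4 genotype. One library represented each group, so no ratio between libraries below has a replicate check. The sources used here do not say which part of Smad4 was deleted, what drove the deletion or whether animals were pooled.

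Recovered reads numbered between 18048963 and 18475248 per library. Smad4 itself stood at 14 RPKM (37 °C) and 14.2 RPKM (39.5 °C) in the WT libraries. In those with the KO label it stood at 20.7 and 21.3 RPKM, so its level was higher under that label. These values are taken over the whole gene model and cannot show the loss of a part of Smad4, which was not tested. An exchange of labels was not tested either and would turn every genotype direction and exchange the 2 temperature comparisons. Genotype directions below are therefore those of the labels, and "KO-labelled" names the libraries labelled Smad4 KO. All 7 T cell markers listed (Cd3e, Cd3d, Cd3g, Cd4, Trac, Trbc1 and Lck) were expressed, with summed levels from 1629 to 1786 RPKM. Summed Th17 markers ranged from 266 RPKM in the KO-labelled library at 37 °C to 2110 RPKM in WT at 39.5 °C. Markers of other cells were low: 1 of 5 B cell markers was measured (Cd79a, 0.151 to 0.485 RPKM), 3 of 5 myeloid markers summed to 2.77 to 8.26 RPKM, 2 of 5 CD8 and natural killer markers to 5.69 to 11.9 RPKM, and 1 of 6 erythroid markers (Hba-a1) stood at 0.0638 to 0.401 RPKM. Their part in the differences below was not tested. In such bulk libraries fewer cells of a kind and less RNA per cell cannot be told apart.

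Promoters of 5 members are shown because these genes carry the patterns described below: Mrps27, Mrps22 and Mrpl42 were lower in both KO-labelled libraries, and Mrps12 and Mrpl34 were lower at 37 °C but higher at 39.5 °C. The windows of 300 bases around the annotated start are RefSeq sequence of GRCm38.p6, written 5′ to 3′ on the strand of the gene. Capitals mark CCGGAAG, the core bound by ETS factors such as GABPA (NRF2), and AAGATGGC, the core bound by YY1, on either strand.
Mrps27 promoter, chr13:99344536-99344835, plus strand: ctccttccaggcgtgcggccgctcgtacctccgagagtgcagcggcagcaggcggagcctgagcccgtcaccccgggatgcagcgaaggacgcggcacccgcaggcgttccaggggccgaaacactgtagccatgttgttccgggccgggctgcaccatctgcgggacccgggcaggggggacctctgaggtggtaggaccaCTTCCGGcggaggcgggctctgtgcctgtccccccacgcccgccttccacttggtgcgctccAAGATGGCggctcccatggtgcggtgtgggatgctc
Mrps22 promoter, chr9:98601630-98601929, minus strand: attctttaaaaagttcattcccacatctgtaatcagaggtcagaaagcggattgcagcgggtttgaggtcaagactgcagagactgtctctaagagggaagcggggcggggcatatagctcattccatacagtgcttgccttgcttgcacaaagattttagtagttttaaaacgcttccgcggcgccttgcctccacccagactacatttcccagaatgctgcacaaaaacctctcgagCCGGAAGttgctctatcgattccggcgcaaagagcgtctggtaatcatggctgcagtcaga
Mrpl42 promoter, chr10:95501900-95502199, minus strand: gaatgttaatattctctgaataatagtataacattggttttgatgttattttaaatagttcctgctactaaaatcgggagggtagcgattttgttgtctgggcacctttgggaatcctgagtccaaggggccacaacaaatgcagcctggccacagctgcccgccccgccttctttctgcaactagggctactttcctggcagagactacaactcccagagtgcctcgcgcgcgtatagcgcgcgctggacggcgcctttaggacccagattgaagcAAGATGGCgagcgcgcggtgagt
Mrps12 promoter, chr7:28741772-28742071, minus strand: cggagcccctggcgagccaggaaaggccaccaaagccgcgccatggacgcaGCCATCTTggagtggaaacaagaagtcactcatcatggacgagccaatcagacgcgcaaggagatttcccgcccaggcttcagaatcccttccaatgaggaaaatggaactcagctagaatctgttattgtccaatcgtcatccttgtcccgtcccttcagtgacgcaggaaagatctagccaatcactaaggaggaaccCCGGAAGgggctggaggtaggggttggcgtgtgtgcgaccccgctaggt
Mrpl34 promoter, chr8:71464676-71464975, plus strand: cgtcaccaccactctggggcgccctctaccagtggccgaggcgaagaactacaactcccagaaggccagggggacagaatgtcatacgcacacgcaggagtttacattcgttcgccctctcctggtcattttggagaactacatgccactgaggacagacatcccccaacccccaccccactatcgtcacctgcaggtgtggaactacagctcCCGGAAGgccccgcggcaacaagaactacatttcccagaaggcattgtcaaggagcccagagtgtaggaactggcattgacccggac
Mrps27 and Mrps12 hold both motifs, Mrps22 and Mrpl34 the ETS motif, and Mrpl42 the YY1 motif. RefSeq promoters matched 67 of the 77 members, with 73 windows. Of the 13715 rows tested only part matched, 7203 genes with 9140 windows. The ETS motif was in 24 of the members' windows (32.9%), against 19.6% of those 9140 windows and 8.86% of all mouse promoters in the table. AAGATGGC was in 12 windows (16.4%, against 5.04% and 2.75%). The motif of NRF1, a regulator of nuclear genes for mitochondria, was searched as GCGCATGC and was in 8 windows (11%, against 5.97% and 2.71%). The E-box CACGTG, bound by MYC among others, was in 7 windows (9.59%, against 10.8% and 7.15%). Both strands were searched and no motif contains another. A match describes the letters in the window and does not show binding.

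The members together took up 2112 and 1893 RPKM in the WT pair (37 °C first, then 39.5 °C, as in every pair below), against 1762 and 1944 RPKM under the KO label. As a share of all RPKM this was 0.417%, 0.397%, 0.317% and 0.369% in the same order. WT at 37 °C was thus highest and the KO-labelled library at 37 °C lowest. The ratio of the summed levels was 0.834 for KO-labelled over WT at 37 °C and 1.03 at 39.5 °C. For 39.5 over 37 °C it was 0.897 in WT and 1.103 in the KO-labelled libraries. Without the 5 members of highest mean these ratios were 0.850, 1.01, 0.902 and 1.07. Counted gene by gene, WT at 37 °C was the highest of the 4 libraries for 47 of the 77 members (26.2% of all 13715 rows tested) and the KO-labelled library at 37 °C the lowest for 39 (28.7% of all rows). Both held for 26 members, against 10.9% of all rows.

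Levels of single members spanned more than an order of magnitude in each library. The gene of highest mean was Mrpl34, a small protein of the large subunit with a bacterial counterpart, at 119 and 117 RPKM in the WT pair, against 96.4 and 142 RPKM under the KO label. Mrpl12, the stalk protein that helps to recruit translation factors, followed at 135, 104, 81.9 and 97.5 RPKM in the same order. Mrpl36, Mrpl41 and Mrpl43 completed the 5 highest, each between 59.4 and 75.7 RPKM in every library. The highest members of the small subunit were Mrps6, at 42.7 to 75.9 RPKM, Mrps12, a protein of the decoding centre, at 49.7 to 64.1 RPKM, Mrps21, at 50.9 to 57.5 RPKM, and Mrps23, at 45.6 to 61.7 RPKM. At the low end were Mrpl48 (2.06 to 2.27 RPKM), Mrpl47 (1.73 to 3.24 RPKM), Mrpl33 (2.26 to 3.17 RPKM), Mrpl1 (1.76 to 3.66 RPKM) and Mrps25 (3.29 to 4.11 RPKM). The reads behind a member in a library ranged from 63 to 3774. Between any of these neighbours at the low end the 4 library values overlapped.

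**Figure D1:**
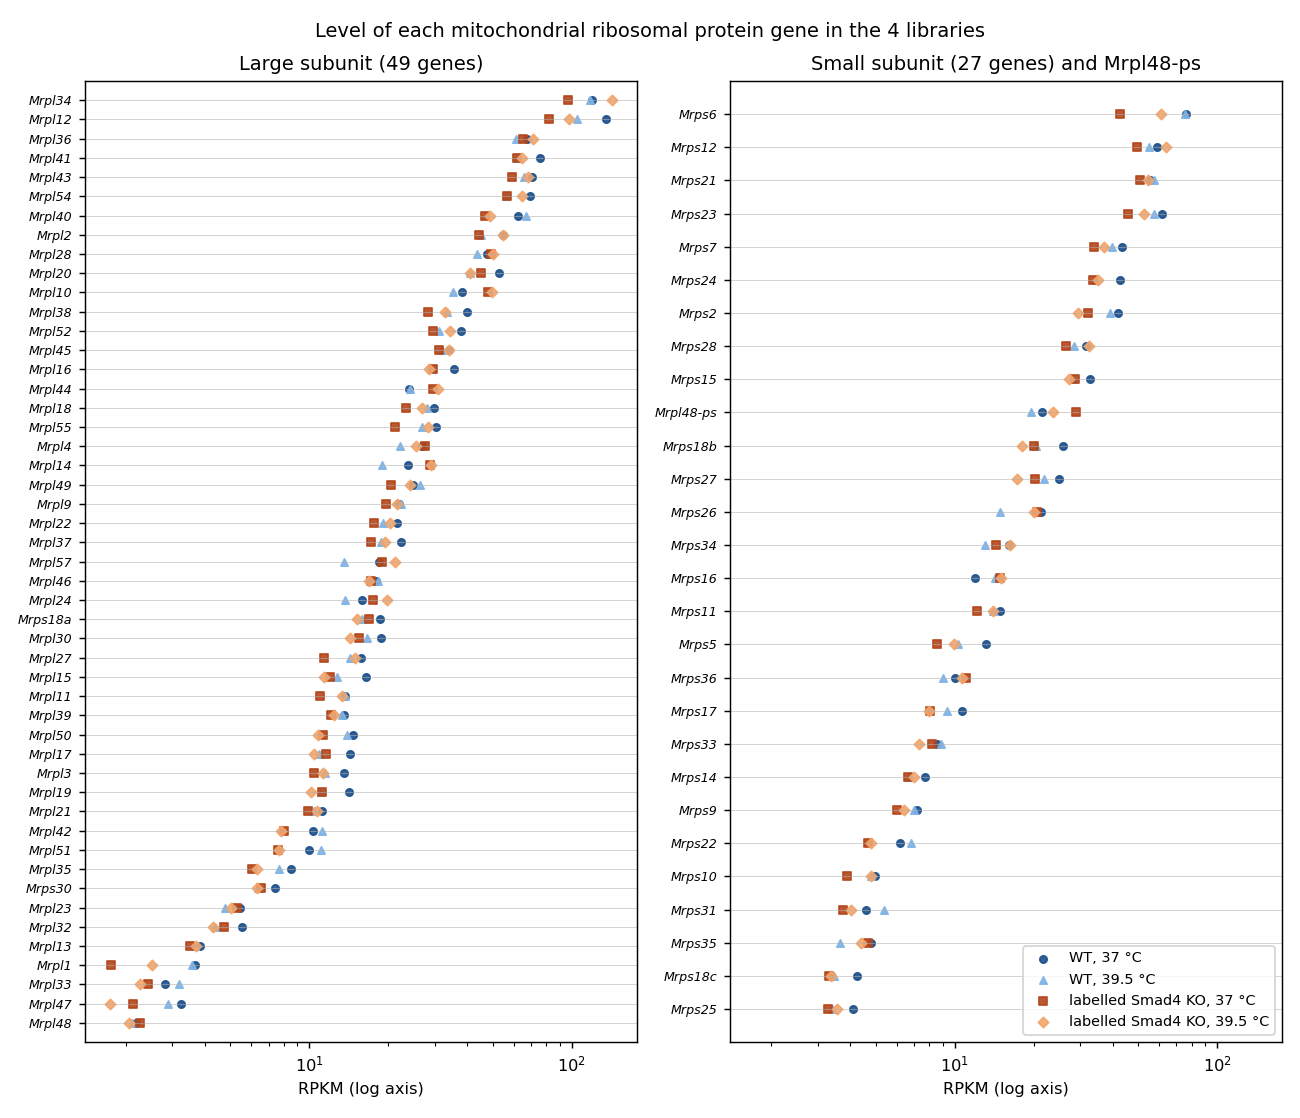
RPKM of each member (log axis) in the 4 libraries, with members ordered by their mean in 2 panels, large subunit on the left and small subunit with Mrpl48-ps on the right. Each point is 1 library. For 47 of the 77 members the circle of WT at 37 °C lies farthest right, and for 39 the square of the KO-labelled library at 37 °C lies farthest left.

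The plot of level against gene model length shows that long models had low RPKM values. Gene models ran from 607 bases (Mrpl34) to 8631 bases (Mrps35), with a median of 2172. Spearman's rho between mean RPKM and model length was -0.74 over the 77 members, a description only, since length enters the RPKM and the members share libraries and annotation. In RPKM, which divides by model length, single-exon pseudogene copies stood above the genes they are named after. Mrpl23-ps1 averaged 75.1 RPKM against 5.13 RPKM for Mrpl23, a ratio of 14.6, and Mrpl48-ps averaged 23.4 RPKM against 2.15 RPKM for Mrpl48, a ratio of 10.9. Mrps36-ps1 and Mrps36-ps2 averaged 40.5 and 26.5 RPKM, against 10.2 RPKM for Mrps36. In reads only Mrpl23-ps1 stood above its gene in every library (697 to 850 against 449 to 484). Mrpl48-ps had 239 to 324 reads on 636 bases, against 309 to 331 on 8152 bases for Mrpl48, and was lower in each library. Mrps36-ps1 had 219 to 240 reads and Mrps36-ps2 146 to 156, against 221 to 251 for Mrps36. Reads of such near-identical copies can be assigned to either, so levels of Mrpl23, Mrpl48, Mrps36 and their copies are uncertain.

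**Figure D2:**
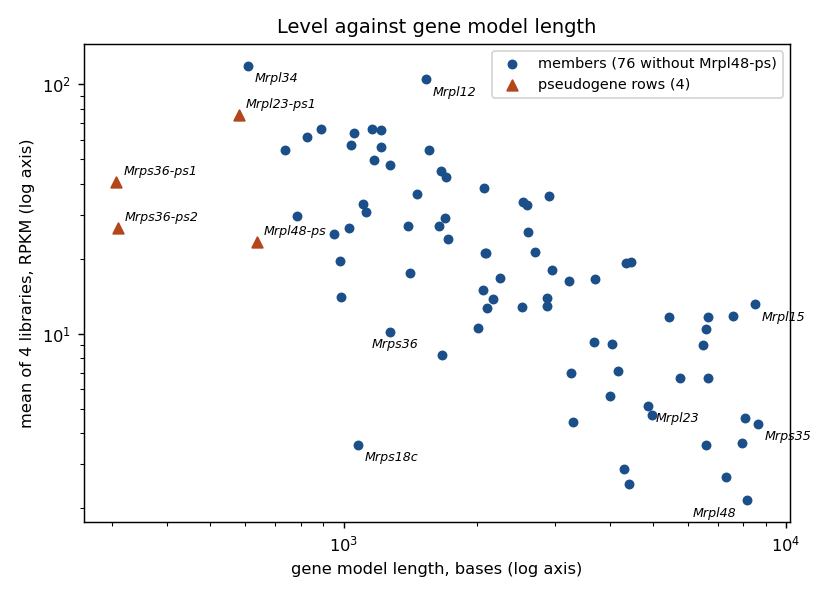
Mean RPKM of the 4 libraries (log axis) against the gene model length in bases (log axis). Circles are members without Mrpl48-ps and triangles are the 4 pseudogene rows, of which Mrpl23-ps1 (75.1 RPKM) is the highest.

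At 37 °C most members were lower in the KO-labelled library than in WT. The median log2 ratio of (RPKM + 1) over the 77 members was -0.26, against -0.01 over the 13715 rows tested, whose mean reached 1 RPKM. Adding 1 understates the changes of low genes. Below 0 were 66 members (51.1% of all rows). At least 1.2-fold lower were 39 members (26.4% of all rows) and at least 1.2-fold higher were 5 (27% of all rows). None passed 2-fold, which 5.84% of all rows did. With equal summed RPKM the split of all rows was 19.8% higher and 36.7% lower, and that of the members 1 and 55. Counting error alone left the 95% interval of the ratio below 1 for 55 members (32.1% of all rows) and above 1 for 5 (30.9%). These intervals treat reads as independent and cover no other error.

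Members are ranked here and below on the log2 (RPKM + 1) scale, while the ratios printed are of the reads per library without the added 1. Lowest on that scale at 37 °C was Mrps6, a small-subunit protein with a bacterial counterpart. It stood at 75.9 RPKM in WT (1456 reads) and 42.7 RPKM in the KO-labelled library (793 reads), a ratio of 0.562 (95% counting interval 0.515 to 0.614). Exons of Mrps6 overlap Slc5a3 on the same strand, which was itself at 1.44 and 0.743 RPKM, so reads of the 2 genes may be mixed. Mrpl1, the protein of the mobile L1 stalk, had 3.66 and 1.76 RPKM from 286 and 133 reads, a ratio of 0.480 (0.388 to 0.592), the lowest without the added 1. Mrpl12 was at 135 and 81.9 RPKM, a ratio of 0.606 (0.575 to 0.639). Mrps5 was at 13.1 and 8.55 RPKM (0.653, 0.602 to 0.707), and Mrpl55 at 30.4 and 21.1 RPKM (0.695, 0.609 to 0.793). Each of these intervals lay well below 1. On the high side stood Mrpl48-ps (21.5 and 28.9 RPKM, ratio 1.34, 1.14 to 1.59), Mrpl10, which anchors Mrpl12 to the ribosome (38.1 and 47.8 RPKM, 1.25, 1.16 to 1.36), Mrpl44 (24 and 29.7 RPKM, 1.24, 1.12 to 1.37), Mrps16 (11.9 and 14.8 RPKM, 1.24, 1.12 to 1.38) and Mrpl14 (23.7 and 28.8 RPKM, 1.21, 1.06 to 1.39). Mrpl10 and Mrpl12 lie side by side in the stalk of the large subunit and their transcripts differed in opposite directions at this temperature.

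At 39.5 °C the genotype ratios of the members centred near no difference. Their median log2 ratio was -0.02, against 0.00 over all rows, and 43 members were below 0 (49.7% of all rows). Lower by at least 1.2-fold were 12 members (24.5% of all rows) and higher were 10 (25.4%), and none passed 2-fold (3.35%). With equal summed RPKM all rows split into 17.2% higher and 35.4% lower, and the members into 5 and 19. The counting interval lay below 1 for 21 members (30.1% of all rows) and above 1 for 16 (31.5%). The lowest was Mrpl47, a protein near the exit of the polypeptide tunnel, at 2.88 RPKM in WT and 1.73 RPKM in the KO-labelled library (246 and 141 reads, ratio 0.601, 0.485 to 0.742). Mrpl51 (11.1 and 7.63 RPKM), Mrpl42 (11.1 and 7.77 RPKM), Mrpl40 (66.7 and 48.7 RPKM) and Mrps22 (6.81 and 4.804 RPKM), came next on the log2 scale, with ratios from 0.689 to 0.730. By the ratio alone Mrpl1 (0.703) and Mrpl33 (0.712) also lay below Mrpl40 (0.730). The highest was Mrpl57, a mitochondria-specific protein, at 13.5 RPKM in WT and 21.2 RPKM in the KO-labelled library (ratio 1.57, 1.43 to 1.72). Mrpl14 was at 19.0 and 29.0 RPKM (1.52, 1.33 to 1.75), Mrpl24 at 13.7 and 19.7 RPKM (1.44, 1.29 to 1.60), Mrpl10 at 35.4 and 49.5 RPKM (1.40, 1.29 to 1.51) and Mrps26 at 14.8 and 20.1 RPKM (1.35, 1.26 to 1.46).

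Both genotype ratios can be read together because they share no library. Lower by at least 1.2-fold at both temperatures were 10 members, Mrps6, Mrpl40, Mrps2, Mrps27, Mrpl50, Mrpl42, Mrpl51, Mrps22, Mrpl1 and Mrpl47 (14.5% of all rows). Higher at both were 4 members, Mrpl10, Mrpl44, Mrpl14 and Mrpl48-ps (17.3% of all rows). The share of members was thus under that of all rows on both sides. The 10 comprise 6 proteins of the large subunit and 4 of the small subunit. Mrps2, a small-subunit protein with a bacterial counterpart, was at 41.8 and 39.2 RPKM in the WT pair, against 32.3 and 29.5 RPKM under the KO label. Mrpl40 was at 62.1 and 66.7 RPKM in the WT pair, against 46.5 and 48.7 RPKM under the KO label, so its 2 WT values lay above its 2 KO-labelled values. Mrps27, a pentatricopeptide repeat protein, was at 24.9 and 21.9 RPKM in the WT pair, against 20.2 and 17.3 RPKM under the KO label. Mrps22 was at 6.19 and 6.81 RPKM in the WT pair, against 4.66 and 4.804 RPKM under the KO label. For Mrpl34 and Mrpl2, a protein near the peptidyl transferase centre, the genotype ratio was under 1 at 37 °C and over 1 at 39.5 °C, past 1.2-fold in both. The share of all rows with this pattern was not counted, so these 2 of the 77 members cannot be set against the background. Mrpl2 was at 54.7 and 45.2 RPKM in the WT pair, against 44.2 and 54.8 RPKM under the KO label, so the WT and KO-labelled values overlapped. Pearson's r between the genotype log2 ratios at 37 and 39.5 °C was 0.61 over the 77 members and 0.71 over all 13715 rows, a description across genes.

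**Figure D3:**
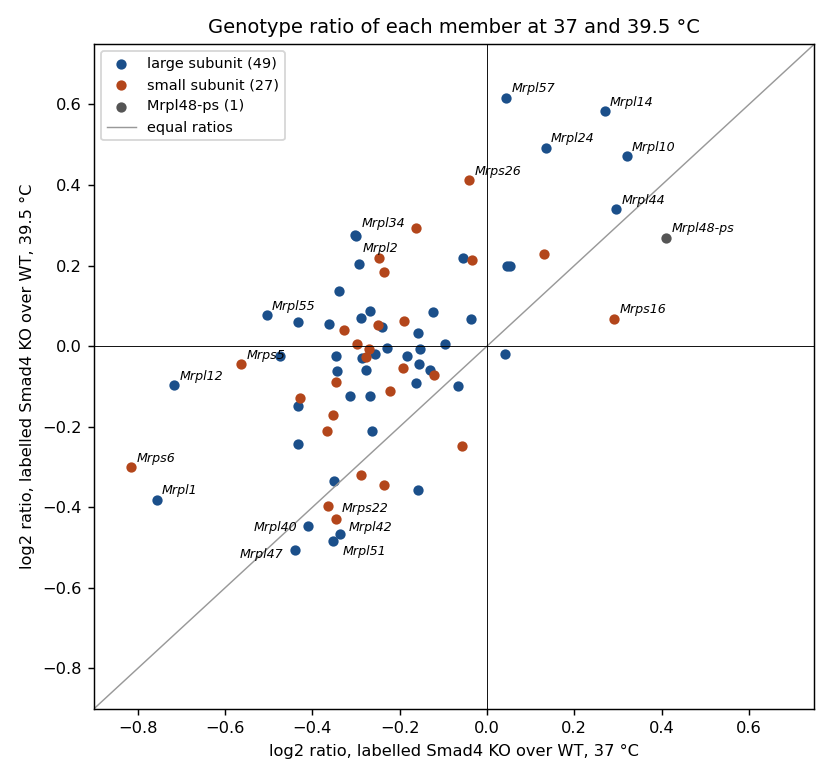
Log2 ratio of (RPKM + 1), KO-labelled over WT, at 37 °C (x axis) and at 39.5 °C (y axis), 1 point per member, with the line of equal ratios. Mrps6 and Mrpl1 lie at the lower left and Mrpl14 and Mrpl10 at the upper right, while Mrpl34 and Mrpl2 lie at the upper left.

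A limma fit of all 4 libraries, with genotype and temperature as additive terms, tested a genotype change shared by both temperatures. Its error rests on 1 residual degree of freedom and a trend over all genes, not on a spread between animals or cultures. That 1 residual is the difference of the temperature ratios between the genotypes, so a large difference raises the error of a gene. This holds for the temperature term too, and a lack of calls is thus not separate evidence from that difference. None of the 77 members passed at an adjusted p under 0.05, whereas 13.3% of all rows did, 8.57% higher and 4.7% lower. At an unadjusted p under 0.05 there were 14 members, 10 lower and 4 higher, against 34.6% of all rows. The lowest adjusted p in limma was that of Mrpl40 (log2 -0.43 ± 0.12 SE, adjusted p = 0.068, 0.033 to 0.099 over the alternatives). Mrpl1 (log2 -0.57 ± 0.16, adjusted p = 0.070, alternatives 0.030 to 0.137) and Mrps6 (log2 -0.56 ± 0.16, adjusted p = 0.075, alternatives 0.030 to 0.128) followed in limma. All 3 were lower in both KO-labelled libraries than in WT of the same temperature. On recovered reads limma-voom called 5 members, all lower: Mrpl47, Mrpl1, Mrpl51, Mrpl40 and Mrps6, against 21.1% of all rows. With the summed RPKM of the libraries made equal limma called 7 (17.3% of all rows), and with no minimum level it called none of the members or other rows.

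In WT the members were mostly lower at 39.5 °C than at 37 °C, by small amounts. The median log2 ratio was -0.14, against -0.02 over all rows, with 63 members below 0 (53.5% of all rows). At least 1.2-fold lower were 19 members (17.7% of all rows) and none was 1.2-fold higher (16.9%). None passed 2-fold (1.98%). The counting interval lay below 1 for 38 members (28.1% of all rows) and above 1 for 2 (22.4%). The count of 19 was 6 with equal summed RPKM, where all rows split into 22.8% higher and 11.5% lower. It was 8 with recovered reads as library size, where all rows split into 21.3% higher and 12.5% lower. Under both scalings the share of members lower was thus under that of all rows.

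Mrps26, a mitochondria-specific small-subunit protein, had the lowest ratio in WT, with 21.3 RPKM at 37 °C and 14.8 RPKM at 39.5 °C (0.698, 0.649 to 0.752). Mrpl57 was at 18.4 and 13.5 RPKM (0.735, 0.669 to 0.809), Mrpl12 at 135 and 104 RPKM (0.771, 0.735 to 0.809), Mrpl20 at 52.9 and 41.0 RPKM (0.775, 0.720 to 0.834) and Mrpl17 at 14.3 and 10.9 RPKM (0.765, 0.716 to 0.817). All 5 intervals lay below 1. Mrps16 had the highest ratio, at 11.9 and 14.2 RPKM (1.19, 1.07 to 1.32). Mrps31 (4.604 and 5.38 RPKM), Mrpl51 (9.99 and 11.1 RPKM), Mrpl33 (2.82 and 3.17 RPKM) and Mrps22 (6.19 and 6.81 RPKM) came next.

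In the KO-labelled libraries more members were higher than lower at 39.5 °C. The median log2 ratio was 0.06, against -0.01 over all rows, with 27 members below 0 (51.3% of all rows). Higher by at least 1.2-fold were 8 members (14.5% of all rows), lower was 1, Mrpl48-ps (16.8% of all rows), and none passed 2-fold (1.66%). The share of members past 1.2-fold was thus under the background on both sides. Counting intervals lay above 1 for 28 members (22.7% of all rows) and below 1 for 7 (24.8%). The count of 8 was 20 with equal summed RPKM, where all rows split into 20.3% higher and 12.2% lower. It was 14 with recovered reads as library size, where all rows split into 18.7% higher and 13% lower. Mrpl34 led with 96.4 RPKM at 37 °C and 142 RPKM at 39.5 °C (ratio 1.48, 1.36 to 1.60). Mrps6 was at 42.7 and 61.2 RPKM (1.43, 1.31 to 1.57), Mrpl55 at 21.1 and 28.3 RPKM (1.34, 1.17 to 1.53), Mrpl27 at 11.3 and 14.9 RPKM (1.31, 1.09 to 1.59) and Mrps12 at 49.7 and 64.1 RPKM (1.29, 1.18 to 1.41). Mrpl1, with few reads, stood at 1.76 and 2.52 RPKM (1.43, 1.145 to 1.80). Lowest were Mrpl48-ps (28.9 and 23.7 RPKM, 0.819, 0.695 to 0.965), Mrps27 (20.2 and 17.3 RPKM, 0.859, 0.773 to 0.955) and Mrpl47 (2.13 and 1.73 RPKM, 0.814, 0.646 to 1.02). Mrps33 (8.16 and 7.30 RPKM) and Mrps18b (20.03 and 18.1 RPKM) came next on the log2 scale.

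The temperature ratio was larger in the KO-labelled libraries than in WT for all but 14 of the 77 members (50.4% of all rows were below 0). The difference of the log2 ratios, KO-labelled minus WT, had a median of 0.22, against -0.00 over all rows. It reached 1.2-fold upward for 31 members (18.9% of all rows) and downward for none (20.5%), and none passed 2-fold (2.22%). With a single library per group this difference has no residual degree of freedom and was not tested. The 37 °C libraries also enter the genotype ratio at that temperature, so these 31 and the 39 members lower there are not separate evidence. Mrpl12 had the highest difference, with a temperature ratio of 0.771 in WT and 1.19 in the KO-labelled libraries, and a ratio of these ratios of 1.54 (1.43 to 1.66, counting error only). For Mrpl55 it was 1.52 (1.27 to 1.82), for Mrpl34 1.4995 (1.34 to 1.67), for Mrpl2 1.502 (1.33 to 1.70) and for Mrpl57 1.52 (1.34 to 1.73). Counting intervals of this ratio lay above 1 for 40 members (21.2% of all rows) and below 1 for 1 (19.7%), Mrps16 (0.846, 0.730 to 0.981). Next to Mrps16 at the low end were Mrpl33, Mrps33, Mrpl48-ps and Mrpl51, with log2 differences of -0.20 to -0.13.

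Opposite directions of the heat response past 1.2-fold in both genotypes were found for 1 member, Mrpl2, whose temperature ratio was 0.826 (0.759 to 0.899) in WT and 1.24 (1.14 to 1.35) in the KO-labelled libraries (1.35% of all rows). The reverse pattern was found for none (1.62%), and past 1.2-fold none was lower in both genotypes (5.65%) or higher in both (6.73%). Lower in both by any size were 23 members (32.7% of all rows). By counting intervals 14 members were lower at 39.5 °C in WT and higher in the KO-labelled libraries (5.36% of all rows), among them Mrpl12, Mrpl36, Mrpl54, Mrps23, Mrps7, Mrpl38 and Mrps5. Lower in both by the same measure were 6 (11.8% of all rows), Mrpl20, Mrps2, Mrps27, Mrps18a, Mrpl17 and Mrpl19. In the additive limma fit no member passed for a temperature change shared by both genotypes. Of all rows 0.0219% passed, 0.0146% upward and 0.00729% downward. No member had an unadjusted p under 0.05 (14% of all rows), and limma-voom called none (2.54% of all rows). The lowest adjusted p in limma was 0.464 (Mrpl20, log2 -0.25 ± 0.13 SE, lower at 39.5 °C in both genotypes).

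**Figure D4:**
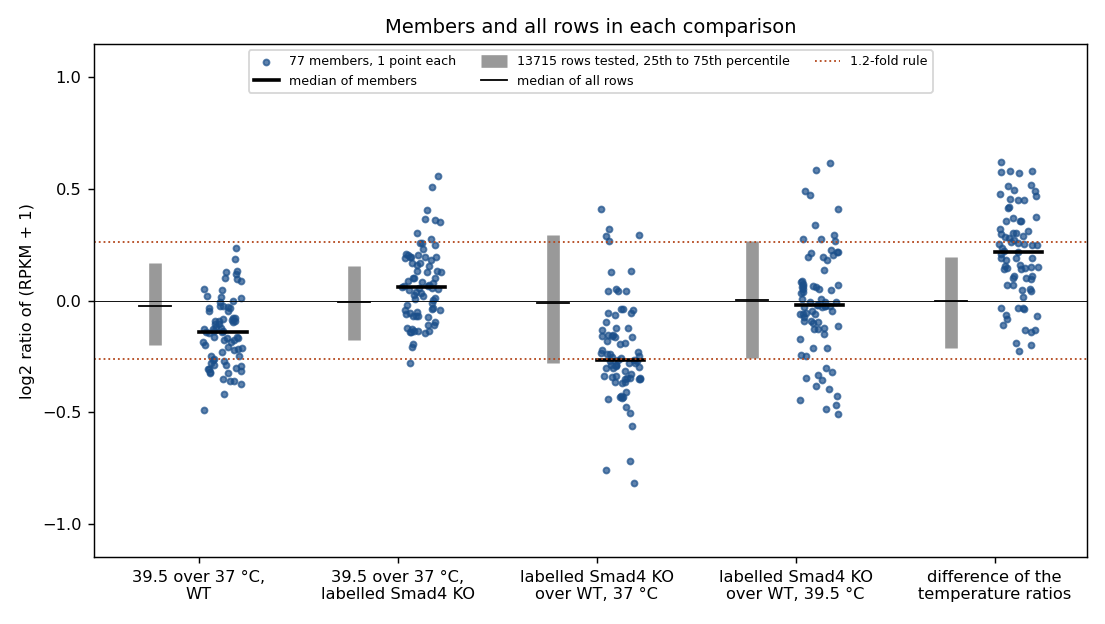
Log2 ratio of (RPKM + 1) for each of the 77 members (points, with their median as a thick line) in the 4 pair comparisons and in the difference of the temperature ratios, beside the median and the 25th to 75th percentile of all 13715 rows tested. The members' medians were -0.14, 0.06, -0.26, -0.02 and 0.22 from left to right, and dotted lines mark 1.2-fold.

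The large and small subunits had similar medians in each comparison. The genotype log2 ratio at 37 °C had a median of -0.27 over the 49 genes of the large subunit and -0.25 over the 27 of the small subunit. At 39.5 °C these medians were -0.02 and -0.04. For temperature they were -0.14 and -0.14 in WT, and 0.06 and 0.07 in the KO-labelled libraries. Within the large subunit the 30 proteins listed with a bacterial counterpart, Mrpl55 among them, had a median of -0.27 at 37 °C. So did the 19 listed as mitochondria-specific. Within the small subunit the 16 with a bacterial counterpart were at -0.27 and the 11 mitochondria-specific ones at -0.24. At 39.5 °C the median of these 11 was -0.13, with 3 members past 1.2-fold downward (Mrps22, Mrps27 and Mrps31) and 2 upward (Mrps26 and Mrps34). The temperature median of these 11 in the KO-labelled libraries was -0.04 and changed sign with scaling (up to 0.04), as did that of the 19 in WT (-0.08, up to 0.00).

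Members named after bacterial S18 show how names and positions can part. Mrps18a sits in the large subunit, and Mrps18b and Mrps18c in the small subunit. Mrps18a was at 18.5 and 15.9 RPKM in the WT pair, against 16.8 and 15.2 RPKM under the KO label. Mrps18b was at 25.8, 20.5, 20.03 and 18.1 RPKM and Mrps18c at 4.23, 3.47, 3.32 and 3.38 RPKM in the same order. Mrps30, also a large-subunit protein despite its name, was at 7.36, 6.35, 6.52 and 6.31 RPKM. WT at 37 °C was highest for all 4, but Mrps18c rested on 63 to 83 reads per library and its counting intervals spanned 1 in every comparison. Mrps36, which later work places in the oxoglutarate dehydrogenase complex, was at 9.997, 8.98, 11.04 and 10.7 RPKM, with both KO-labelled values above both WT values. The counting intervals of its genotype ratios spanned 1 at 37 °C (0.919 to 1.33) and at 39.5 °C (0.990 to 1.43).

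Other genes of the pathway came from lists by role. Mitoribosomal proteins with other names (Dap3, Ptcd3, Chchd1, Aurkaip1, Gadd45gip1 and Ict1) had genotype medians of -0.13 at 37 °C and 0.05 at 39.5 °C, the latter below 0 with equal summed RPKM (-0.09) and with recovered reads as library size (-0.04). None of these 6 passed the limma test for genotype (13.3% of all rows did). At an unadjusted p under 0.05 there was 1 (34.6% of all rows), and limma-voom called 1 lower (9.33%). Ptcd3, a pentatricopeptide repeat protein of the small subunit, was at 8.25 and 8.87 RPKM in the WT pair, against 5.16 and 6.45 RPKM under the KO label. Gadd45gip1, a large-subunit protein, was at 39.03 and 29.2 RPKM in the WT pair, against 30.5 and 35.6 RPKM under the KO label. Of 24 mitoribosome assembly genes tested, 2 fell with the KO label in limma (4.7% of all rows) and none rose (8.57% of all rows). Limma-voom called the same 2 lower and Mtg1 higher (9.33% and 11.8% of all rows). Fastkd2, which binds the large ribosomal RNA, was at 5.78 and 6.26 RPKM in the WT pair, against 3.18 and 3.75 RPKM under the KO label (log2 -0.65 ± 0.13 SE, limma adjusted p = 0.035, 0.0093 to 0.096 over the alternatives). Mrm3, which methylates that RNA, was at 15.2 and 13.3 RPKM against 7.97 and 9.49 RPKM (log2 -0.65 ± 0.15, limma adjusted p = 0.048, alternatives 0.013 to 0.103). Mtg1, a GTPase of large-subunit assembly, was at 4.86 and 3.21 RPKM in the WT pair, against 6.57 and 6.16 RPKM under the KO label (log2 0.57 ± 0.15, limma adjusted p = 0.066).

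None of 12 translation factors tested passed for genotype in limma (13.3% of all rows did). At an unadjusted p under 0.05 there were 3 (34.6% of all rows). Limma-voom called 2, both lower (9.33% of all rows). Of the 12 factors, Gfm1, an elongation factor, was at 23.2 and 20.7 RPKM in the WT pair, against 15.8 and 16.2 RPKM under the KO label. Lrpprc, which stabilises mitochondrial messenger RNAs, was at 10.6 and 9.03 RPKM against 7.18 and 6.78 RPKM. Of 22 aminoacyl-tRNA synthetase and amidotransferase genes 1 fell, Gatc, a subunit of the amidotransferase that makes glutaminyl-tRNA (17.5 and 15.3 RPKM in the WT pair, 9.02 and 10.1 RPKM under the KO label, log2 -0.72 ± 0.14, limma adjusted p = 0.034, alternatives 0.0069 to 0.085), against 4.7% of all rows. None of the 22 rose in limma (8.57% of all rows). Limma-voom called 1 lower (9.33% of all rows) and 2 higher (11.8%), among the latter Vars2, the synthetase for valine. Of 12 genes for mitochondrial transcription and its nuclear regulators 1 fell (4.7% of all rows), Tfb2m, an initiation factor of mitochondrial transcription (6.21 and 7.02 RPKM against 4.08 and 4.34 RPKM, log2 -0.54 ± 0.13, limma adjusted p = 0.0496, alternatives 0.027 to 0.114). Gabpa, whose protein binds the ETS motif shown above, was at 7.26 and 7.16 RPKM in the WT pair, against 5.08 and 4.97 RPKM under the KO label and did not pass in limma (log2 -0.45 ± 0.13, limma adjusted p = 0.072), though it did in limma-voom.

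Mitochondrially encoded RNAs, which the mitoribosome contains or translates, were lower in both KO-labelled libraries. Their genotype medians were -0.71 at 37 °C and -0.79 at 39.5 °C over 15 RNAs. In limma 12 of the 15 fell with the KO label and none rose (4.7% of all rows fell). That count was 12 in limma-voom (9.33% of all rows) and 0 without the minimum level, a setting in which limma called no row at all. Nuclear subunits of the respiratory chain had medians of 0.03 and 0.06 over 78 genes, which were below 0 with summed RPKM made equal, and 3 rose and 1 fell (8.57% and 4.7% of all rows). Cytosolic ribosomal proteins had genotype medians of 0.27 and 0.26 over 83 genes, of which 9 rose (8.57% of all rows) and none fell (4.7%) in limma. Limma-voom called 14 that rose (11.8% of all rows) and none that fell (9.33%). At 37 °C the members' median was thus below 0 while that of the cytosolic ribosomal proteins was above 0, under each of the scalings run. With temperature the cytosolic medians were -0.15 (WT) and -0.13 (KO-labelled). The members, at -0.14 and 0.06, were on the same side in WT and on the other side in the KO-labelled libraries.

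**Figure D5:**
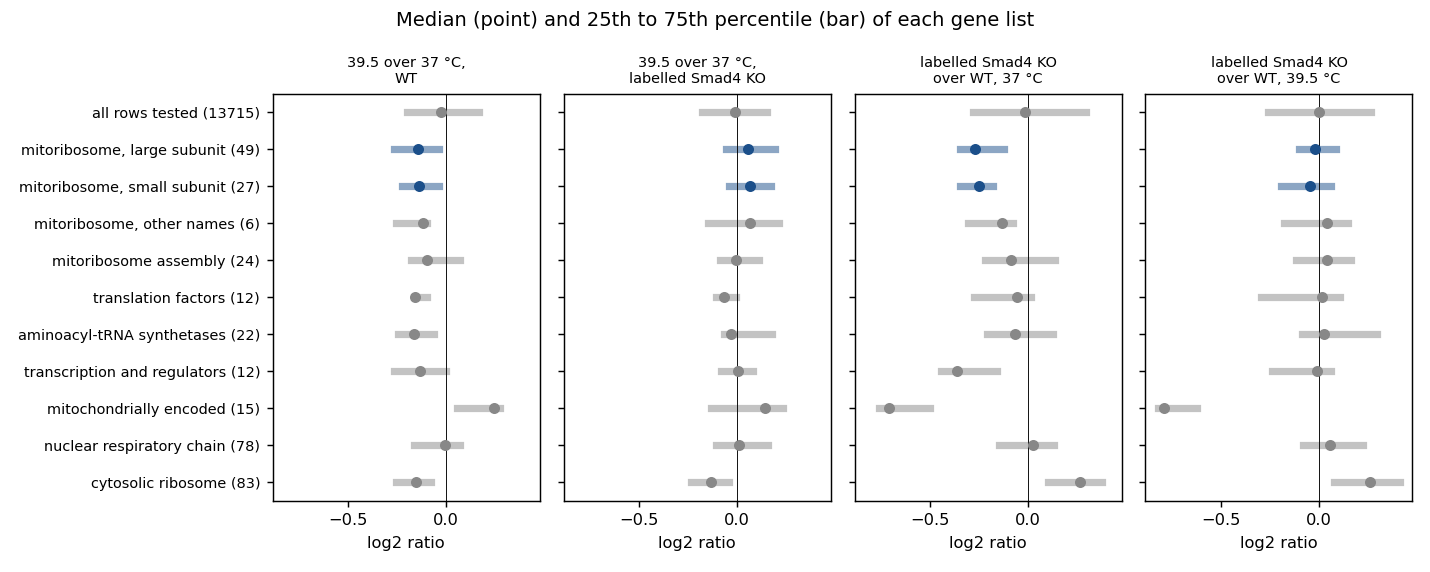
Median log2 ratio of (RPKM + 1) (points) and 25th to 75th percentile (bars) of each gene list in the 4 pair comparisons, with the number of genes tested in parentheses and both mitoribosomal subunits in blue. Both subunits lie left of 0 at 37 °C in the genotype comparison (-0.27 and -0.25), where cytosolic ribosomal proteins lie right of it (0.27).

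Medians were compared between members with and without each promoter motif. For the ETS motif the genotype median at 37 °C was -0.27 over the 24 members with it and -0.26 over the 43 without it. For AAGATGGC it was -0.28 over 12 and -0.26 over 55 members, and for GCGCATGC -0.17 over 8 and -0.27 over 59. Members lie on 17 chromosomes. For 18 of 76 members (23.7%) a protein-coding gene on the other strand starts within 1000 bp upstream of the member's start. Of protein-coding rows tested 11.5% had such a partner. Partners that start inside the gene were not counted. Partners did not all follow their member: Ncapd2, which starts 100 bp from Mrpl51, was at 30.3 and 47.4 RPKM in the WT pair, against 38.9 and 53.8 RPKM under the KO label, while Mrpl51 was at 9.99 and 11.1 RPKM against 7.61 and 7.63 RPKM. Sars2, the mitochondrial seryl-tRNA synthetase gene, starts 172 bp from Mrps12 and was at 8.52, 9.07, 8.97 and 11.2 RPKM, with the WT pair first.

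Exons of 31 of the 77 members overlap another annotated gene, on the opposite strand for 26 and on the same strand for 7. The sources used here do not give the strandedness of the counting, so reads of such pairs cannot be told apart. The 31 include Mrps6, Mrpl12, Mrpl10, Mrpl14, Mrpl44, Mrps26, Mrps27, Mrpl24, Mrpl27, Mrpl33, Mrpl47, Mrpl48, Mrpl51, Mrps18b, Mrps18c, Mrps25, Mrps30, Mrps34, Mrpl36 and Mrpl43 among the members named above. Mrpl46 and Mrps11, both members, overlap each other on opposite strands. With the WT pair first, Mrpl46 was at 18.0, 18.2, 17.1 and 16.9 RPKM and Mrps11 at 14.9, 14.04, 12.2 and 13.98 RPKM. Over the 46 members without an overlap the genotype median at 37 °C was -0.27 and the median difference of the temperature ratios was 0.21.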

How the data were processed

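RNA-seq was done on 4 libraries, 1 per combination of genotype label and temperature. The authors deposited 1 table of RPKM per library. The build mm10 and the tools Bowtie2, Subread, featureCounts, edgeR and Trim Galore 0.4.4 are named in the submitters' processing notes, with no role given. Kits and culture are per the labels' protocols. The sources used here give neither the annotation nor the strand setting. Bowtie2 places reads without spanning introns, so reads over exon joins may be missing, which was not tested.

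Whole reads were recovered from the RPKM values. At GENCODE vM21 exon lengths 91.7% of matched rows gave whole reads within 0.01 reads. The other rows were given a fitted length, with a tolerance of 0.003 reads. By both routes together 19554 of 19555 rows gave whole reads. Library sizes behind the values were 18216613 and 19308699 in the WT pair, against 17639131 and 18410930 under the KO label. Recovered reads were 18048963 and 18253543 in the WT pair, against 18474629 and 18475248. The sizes thus lay above the recovered reads in WT and below them under the KO label, so they need not be read totals. The reason was not tested. All ratios use these sizes except in the alternatives that change the scaling. Ratios between libraries carry exact 95% counting intervals. Tests used log2(RPKM + 1), a minimum mean of 1 RPKM (13715 rows) and an additive model in limma 3.58.1 (R 4.3.3, trend, 1 residual degree of freedom, Benjamini-Hochberg adjustment over all rows, threshold 0.05). The scripts were tested on simulated data. Each pair comparison was described by 1.2-fold and 2-fold rules, beside all rows, with no test.

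Members, lists, motifs and rules were chosen with earlier results of these data known. Named were the 5 highest and 5 lowest members in each comparison and in mean level, members that passed a test, Mrps36, the Mrps18 genes and Mrps30, and listed genes that passed or kept 1 direction past 1.2-fold. The highest small-subunit members, promoters, pathway examples, overlapping genes and partners to print were picked after their values were seen. Results for some listed genes are not reported here. Alternatives changed the pseudocount, the minimum, the scaling, the variance trend and the tool. Recovered reads as library size, leaving out Mrpl48-ps and leaving out overlapping members were added after the data were seen.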

Additional observations from a re-analysis of the deposited data

Results flagged for a closer look

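The medians of the members for temperature had opposite signs in the 2 genotypes. The median log2 ratio of 39.5 over 37 °C was -0.14 in WT and 0.062 in the KO-labelled libraries, and the difference was not tested. Lower in WT and higher in the KO-labelled libraries by any size were 40 of the 77 members (20.9% of all rows), and past 1.2-fold 1 (1.35%). By counting intervals 14 members were lower at 39.5 °C in WT and higher in the KO-labelled libraries (5.36% of all rows). Mrpl2 had temperature ratios of 0.826 in WT and 1.24 in the KO-labelled libraries, and genotype ratios of 0.808 at 37 °C and 1.21 at 39.5 °C. Mrpl34 had genotype ratios of 0.809 at 37 °C and 1.21 at 39.5 °C. The share of all rows with such a pair of genotype ratios was not counted. These differences were not tested either, and each rests on 1 library per group.

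The pseudogene rows left out of the members carried signal. Mrpl23-ps1 had a mean of 75.1 RPKM, Mrps36-ps1 of 40.5 RPKM and Mrps36-ps2 of 26.5 RPKM.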

How the results depend on the processing

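No paired analysis was possible because each group has 1 library and the labels give no replicate numbers, so no library could be left out either. The sign of the members' median held in each of the 5 comparisons under every alternative run. Equal summed RPKM moved the median of all rows to -0.13 and -0.12 in the genotype comparisons at 37 and 39.5 °C, and relative to that shift the members' medians were -0.26 and -0.02.

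Counts past 1.2-fold moved more. In WT 1 member was higher at 39.5 °C with upper quartile scaling (19% of all rows), equal summed RPKM (22.8%) or recovered reads (21.3%). The members lower were 6 with equal summed RPKM (11.5% of all rows), 8 with recovered reads (12.5%) and 12 without overlapping members (17.7%). With equal summed RPKM and with recovered reads the share of members lower was under that of all rows. In the KO-labelled libraries the members higher were 20 and 14 with equal summed RPKM and recovered reads (20.3% and 18.7% of all rows). The members lower there were 2 with a pseudocount of 0.1 (19.6% of all rows). They were 0 with these 2 scalings (12.2% and 13% of all rows), upper quartile scaling (15.8%) or no Mrpl48-ps (16.8%). At 37 °C the members higher in the KO-labelled library were 1 with equal summed RPKM (19.8% of all rows) or recovered reads (22.6%). Without overlapping members they were 2 (27% of all rows), which left 24 lower (26.4%). Past 2-fold was 1, Mrpl1 (log2 -1.02), with a pseudocount of 0.1. At 39.5 °C the members higher were 5 with equal summed RPKM (17.2% of all rows) or recovered reads (20%) and 4 without overlapping members (25.4%). The members lower were 19 with equal summed RPKM (35.4% of all rows) and 7 without overlapping members (24.5%). Of the difference of temperature ratios 17 members remained past 1.2-fold upward without overlapping members (18.9% of all rows). Leaving out the overlapping members lowers such counts by construction, since 46 members are left. The other causes were not tested.

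Limma genotype calls among members were 0 as reported, 2 with a minimum mean of 5 RPKM (24.9% of all rows), 1 with upper quartile scaling (16.7%), 7 with equal summed RPKM (17.3%), 1 with recovered reads (14.5%) and 5 with limma-voom (21.1%). Depth limited single members: counting intervals reached a median of 0.14 (temperature in WT) to 0.15 (genotype at 37 °C) to either side on the log2 scale.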
